A study of Arabidopsis thaliana with 24 samples.

Results

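The genes described here are listed members of the A-, B- and D-type cyclin families of Arabidopsis thaliana, together with CDKA;1 and 4 B-type cyclin-dependent kinases (CDKs). They were taken from a list of loci by family and not by their measured values. The list was chosen with earlier results of these data known. The list holds 33 of the 32833 loci counted: 9 A-type, 9 B-type and 10 D-type cyclins and 5 CDKs. Of these, 32 passed the filter on low counts and were tested among 21290 genes. The exception was CYCD7;1, which is known from the last division of the stomatal lineage and had 0 counts in each of the 24 libraries.

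The A-type cyclins were CYCA1;1 and CYCA1;2 (AT1G44110 and AT1G77390), CYCA2;1 to CYCA2;4 (AT5G25380, AT5G11300, AT1G15570 and AT1G80370, in that order), and CYCA3;1, CYCA3;2 and CYCA3;4 (AT5G43080, AT1G47210 and AT1G47230). The B-type cyclins were CYCB1;1 to CYCB1;4 (AT4G37490, AT5G06150, AT3G11520 and AT2G26760), CYCB2;1 to CYCB2;4 (AT2G17620, AT4G35620, AT1G20610 and AT1G76310) and CYCB3;1 (AT1G16330). The D-type cyclins were CYCD1;1 (AT1G70210), CYCD2;1 (AT2G22490), CYCD3;1 to CYCD3;3 (AT4G34160, AT5G67260 and AT3G50070), CYCD4;1 and CYCD4;2 (AT5G65420 and AT5G10440), CYCD5;1 (AT4G37630), CYCD6;1 (AT4G03270) and CYCD7;1 (AT5G02110). The CDKs were CDKA;1 (AT3G48750), CDKB1;1 and CDKB1;2 (AT3G54180 and AT2G38620), and CDKB2;1 and CDKB2;2 (AT1G76540 and AT1G20930). The deposited tables hold loci, and each gene is given here by its symbol or by its locus and subfamily.

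A CDK phosphorylates its targets only when a cyclin is bound to it, and the cyclin sets the stage of the cell cycle. D-type cyclins act with CDKA;1 on the retinoblastoma protein and link sugar, hormone and growth signals to entry into DNA replication. A-type cyclins act from replication to mitosis, and B-type cyclins act with CDKs at entry into and passage through mitosis. In roots held on an inhibitor of auxin transport, pericycle cells rest. Auxin then makes them divide together as lateral roots begin.

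Messenger RNA was counted by RNA sequencing in 24 libraries in 8 groups of 3. All seedlings were 7 d old and first spent 24 h on 10 µM NPA, which blocks auxin transport. They then had a further 24 h on NPA with 10 µM estradiol or with the solvent DMSO. Lastly they either stayed on those plates (the NPA groups) or moved to 10 µM of the auxin IAA, again with estradiol or solvent (the IAA groups), and roots were taken 6 h later. The genotypes were the wild type Col-0 and UB10pro>>amiR-TOR, called amiR-TOR here, in which estradiol induces an artificial microRNA against the protein kinase TOR from the broadly active UB10 promoter. The labels do not say how many independent lines stood behind amiR-TOR. About 200 segments of the lower part of the roots were pooled in each library. The IAA and NPA groups also differ in whether the plants were moved off the NPA plates. IAA, the move and leaving those plates cannot be told apart in any comparison of IAA with NPA. In pooled tissue, more cells of a type and more RNA per cell cannot be told apart either. Nothing in the labels says that the 3 libraries of a group came from separate cultures, so p-values measure the spread between these libraries.

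Gene counts per library lay between 8589833 and 40494513. In 5 libraries between 25.8% and 47.6% of reads were unmapped, against 1.56% to 12% in the other 19. They were replicate 1 of Col-0 on NPA, replicate 1 of Col-0 on IAA, replicates 2 and 3 of Col-0 on IAA and estradiol, and replicate 1 of amiR-TOR on IAA and estradiol. Counts given below were also made without them. Only replicate 1 of Col-0 on IAA and estradiol then remained in its group, so any value of that group without them rests on this library. TOR, the target of the microRNA, had 26.4 ± 1.7 to 27.0 ± 5.81 CPM (counts scaled to a common library size, SD, n = 3) in the 2 amiR-TOR groups with estradiol and between 56.9 and 70.6 CPM on average in the other 6 groups. Summed over 6 markers, root ground tissue and epidermis lay between 47.1 and 147.8 CPM in every library, with none of the 6 at 0. Transcripts of 5 markers of green shoot tissue summed to between 6.90 and 143.8 CPM in these root samples, with up to 2 of the 5 at 0 in a library. Whether shoot tissue was in the samples was not tested.

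Upstream sequences are shown first because the classes differed in them. The motif searched was AACGG on both strands, the core of the mitosis-specific activator element that MYB3R factors bind in plants. The window ran from 250 bases before to 50 bases after the annotated start of each gene in the RefSeq annotation of TAIR10.1, where all 33 loci were matched by locus. The core was in 8 of 9 B-type (88.9%), 4 of 9 A-type (44.4%), 1 of 10 D-type cyclins (10%) and 1 of 5 CDKs (20%), against 24.7% of windows of 27443 protein-coding genes. At least 2 cores stood in 7 of 9 B-type and 4 of 9 A-type cyclins, in 0 D-type cyclins and 0 CDKs, and in 4.89% of all genes. A pair of E2F sites, TTTCCCGC and TTTGGCGC, was searched the same way. One of them was found in AT3G50070 of CYCD3, starting at base -104, and in none of the other 32 genes, against 1.21% of all genes, and it did not overlap an AACGG core.

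The 250 bases before the start are printed 5′ to 3′ for the A-, B- and D-type cyclins with the largest rise of their class on IAA in Col-0, and for CYCB1;2 (AT5G06150), which had the most cores. Capitals mark the AACGG core on either strand.
CYCA1;1: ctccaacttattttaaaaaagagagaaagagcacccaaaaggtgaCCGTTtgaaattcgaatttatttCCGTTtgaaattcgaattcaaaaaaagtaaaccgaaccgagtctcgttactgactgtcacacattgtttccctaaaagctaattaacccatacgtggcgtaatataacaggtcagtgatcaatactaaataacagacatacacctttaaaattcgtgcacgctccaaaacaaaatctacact
CYCB1;2: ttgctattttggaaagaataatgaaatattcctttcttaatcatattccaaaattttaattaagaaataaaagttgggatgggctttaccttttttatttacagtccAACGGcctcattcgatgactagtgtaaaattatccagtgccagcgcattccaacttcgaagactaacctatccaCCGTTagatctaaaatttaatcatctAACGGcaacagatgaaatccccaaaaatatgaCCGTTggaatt
CYCB1;4: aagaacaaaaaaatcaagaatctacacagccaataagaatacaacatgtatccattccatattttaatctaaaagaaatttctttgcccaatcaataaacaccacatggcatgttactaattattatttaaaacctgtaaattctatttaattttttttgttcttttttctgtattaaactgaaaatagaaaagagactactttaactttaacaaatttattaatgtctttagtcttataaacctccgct
CYCD3;1: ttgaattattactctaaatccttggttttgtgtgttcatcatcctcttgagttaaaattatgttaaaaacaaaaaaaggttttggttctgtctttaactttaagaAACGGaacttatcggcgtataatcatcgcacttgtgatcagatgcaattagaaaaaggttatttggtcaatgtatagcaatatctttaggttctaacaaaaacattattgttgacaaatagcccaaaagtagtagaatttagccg
In the order shown, they lie at chr1:16777353-16777602, reverse strand, at chr5:1861704-1861953, reverse strand, at chr2:11400868-11401117, forward strand and at chr4:16357171-16357420, forward strand. AT5G06150 had 5 cores, of which 4 stand in the stretch printed. Both cores of AT2G26760 lie past it, at bases 0 and 27 counted from the first base of the gene as 0. AT4G34160 had 1 core. A match is a run of letters and no evidence of binding.

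Per kilobase of exon, CDKA;1 (AT3G48750) stood above the other 32 genes in each of the 8 groups, with 41.0 ± 0.345 CPM per kb (SD, n = 3) in Col-0 on NPA and 46.6 ± 1.43 on IAA. AT3G48750 is the kinase that plants use throughout the cycle. The next ranks in Col-0 on NPA were held by D-type cyclins: AT5G67260 of CYCD3 had 12.7 ± 1.41, AT3G50070 of CYCD3 11.9 ± 1.36, AT2G22490 of CYCD2 10.9 ± 0.741 and CYCD1;1 10.4 ± 1.87 CPM per kb. These 4 neighbours in the order lay within their spread. On IAA, CDKB2;1, a kinase of entry into mitosis, took rank 2 in both genotypes and with and without estradiol, with 41.9 ± 7.7 CPM per kb in Col-0 without estradiol. Its spread there reached that of AT3G48750. The 3 lowest tested genes were AT1G77390 of CYCA1, AT5G10440 of CYCD4 and AT4G03270 of CYCD6, with 624, 574 and 526 counts over all libraries. For CYCD7;1, 3 counts per library allow a level of up to 0.0712 CPM in the deepest and 0.361 CPM in the shallowest library, from counting error alone.

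Auxin was compared with NPA to ask which genes respond to lateral root induction. In Col-0 without estradiol, all 18 A- and B-type cyclins rose on IAA, as did the 4 B-type CDKs and 5 of the 10 D-type cyclins, and none of the 33 genes fell. Among all tested genes, 63.3% were called in this comparison, 31.3% as higher and 32% as lower. The median log2 fold change was 1.82 over the B-type, 0.97 over the A-type and 0.61 over the 9 tested D-type cyclins, and -0.04 over all tested genes. A- and B-type cyclins together had a median of 1.49. A gene is called here when its adjusted p from edgeR's quasi-likelihood test with Benjamini-Hochberg adjustment over all tested genes was under 0.05.

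Among B-type cyclins the log2 fold changes ran from 1.05 to 2.40. CYCB1;4 had 6.33, 5.33 and 7.09 CPM on NPA and 38.6, 29.8 and 30.4 CPM on IAA. Every IAA library lay above every NPA library, and the log2 fold change was 2.40 ± 0.14 (SE, adjusted p = 1.26e-12, edgeR). CYCB1;3 went from 4.86, 3.99 and 4.23 CPM to 22.7, 17.8 and 22.2 CPM, again without overlap, with 2.26 ± 0.16 (SE, adjusted p = 1.81e-11, edgeR). CYCB2;3 followed with 1.97 ± 0.16 and CYCB2;2 with 1.96 ± 0.20. CYCB1 and CYCB2 proteins act in mitosis. CYCB1;1, the usual marker of cells in G2 and mitosis, had the smallest B-type rise, with 5.60, 4.37 and 3.79 CPM on NPA and 13.3, 6.74 and 8.73 CPM on IAA. Its libraries did not overlap, and the log2 fold change was 1.05 ± 0.25 (SE, adjusted p = 0.000886, edgeR). CYCB2;1, CYCB3;1, CYCB1;2 and CYCB2;4 rose by between 1.27 and 1.82.

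The A-type cyclins spread more widely, from 0.34 for CYCA3;2 (AT1G47210) to 2.14 for CYCA1;1 (AT1G44110). AT1G44110, a cyclin whose transcript peaks towards mitosis, had 6.51, 3.54 and 4.01 CPM on NPA and 28.3, 14.02 and 19.9 CPM on IAA, and replicate 1 was the highest in both groups. The log2 fold change was 2.14 ± 0.20 (SE, adjusted p = 4.38e-09, edgeR). CYCA2;4 went from 6.06, 5.86 and 6.49 CPM to 22.5, 21.5 and 25.7 CPM with 1.93 ± 0.12 (SE, adjusted p = 1.88e-12, edgeR), and CYCA2;2 from 4.91, 4.33 and 3.85 to 11.7, 11.7 and 14.1 CPM with 1.52 ± 0.18 (SE, adjusted p = 1.09e-07, edgeR). Neither pair of groups overlapped. CYCA2 cyclins hold back endoreduplication, the copying of DNA without division. CYCA1;2, known from meiosis, rose by 1.43 ± 0.36 at a low level of 0.495 to 2.63 CPM. CYCA2;1, CYCA2;3, CYCA3;1 and CYCA3;4 rose by between 0.78 and 0.97. AT1G47210, in a subfamily linked to DNA replication, rose by only 0.34 ± 0.12 (adjusted p = 0.0142, edgeR). Its call was lost without the 5 libraries of many unmapped reads and without replicate 1 of Col-0 on NPA, with adjusted p up to 0.142.

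The D-type cyclins split. CYCD3;1 (AT4G34160) had the largest rise of all 32 tested genes of the list, from 9.54, 6.90 and 5.22 CPM on NPA to 50.2, 44.3 and 46.3 CPM on IAA. The groups were far apart, and the log2 fold change was 2.69 ± 0.18 (SE, adjusted p = 1.38e-11, edgeR). CYCD3;2 went from 24, 19.5 and 20.4 CPM to 62.2, 59.5 and 60.1 CPM, with 1.51 ± 0.10 (SE, adjusted p = 6.54e-12, edgeR). CYCD3 cyclins keep cells dividing in response to cytokinin. Smaller rises were seen for AT1G70210 of CYCD1 (0.71 ± 0.18), AT2G22490 of CYCD2 (0.66 ± 0.12) and AT3G50070 of CYCD3 (0.61 ± 0.12), each with every IAA library above every NPA library. The other 4 tested were not called. CYCD4;1, which is known from the pericycle and lateral root density, had 6.93, 4.29 and 4.23 CPM on NPA and 5.60, 4.04 and 3.52 CPM on IAA, and its groups overlapped at -0.25 ± 0.21 (SE, adjusted p = 0.311, edgeR). CYCD5;1 had -0.18 ± 0.21, CYCD4;2 -0.13 ± 0.34 and CYCD6;1 (AT4G03270) 0.56 ± 0.46. AT4G03270 drives the formative division of the root ground tissue. AT4G34160 shares bases with the neighbouring locus AT4G34150 on the same strand, so some of its reads may have been left out as ambiguous.

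Of the CDKs, CDKB2;1 went from 14.1, 12.98 and 11.4 CPM on NPA to 65.4, 45.4 and 60.95 CPM on IAA, and the groups did not overlap at 2.15 ± 0.13 (SE, adjusted p = 1.28e-12, edgeR). CDKB2;2 rose by 1.55 ± 0.15, CDKB1;2 by 1.47 ± 0.17 and CDKB1;1 by 0.70 ± 0.13. B-type CDKs are found in plants, and those of the CDKB2 group are made from G2 to mitosis. CDKA;1 had 60.9, 61.9 and 61.6 CPM on NPA and 67.4, 71.2 and 71.2 CPM on IAA. Its IAA libraries all lay higher, yet the change of 0.18 ± 0.09 (SE, adjusted p = 0.0649, edgeR) did not pass. Leaving out the 5 libraries of many unmapped reads gave rises of 17 A- and B-type cyclins, 5 D-type cyclins and 4 CDKs. Beside these changes, the root tip and cap markers summed to 26.7 to 39.6 CPM on NPA and 60.1 to 67.6 CPM on IAA (2 of 7 called higher, 0 lower), and the ground tissue and epidermis markers summed to 81.7 to 97.03 CPM on NPA and 53.3 to 70.2 CPM on IAA (0 of 6 called higher, 3 lower). In the same libraries, the green shoot markers summed to 98.2 to 143.8 CPM on NPA and 26.9 to 40.5 CPM on IAA (0 of 5 called higher, 4 lower), and the part of these markers was not tested.

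**Figure D1:**
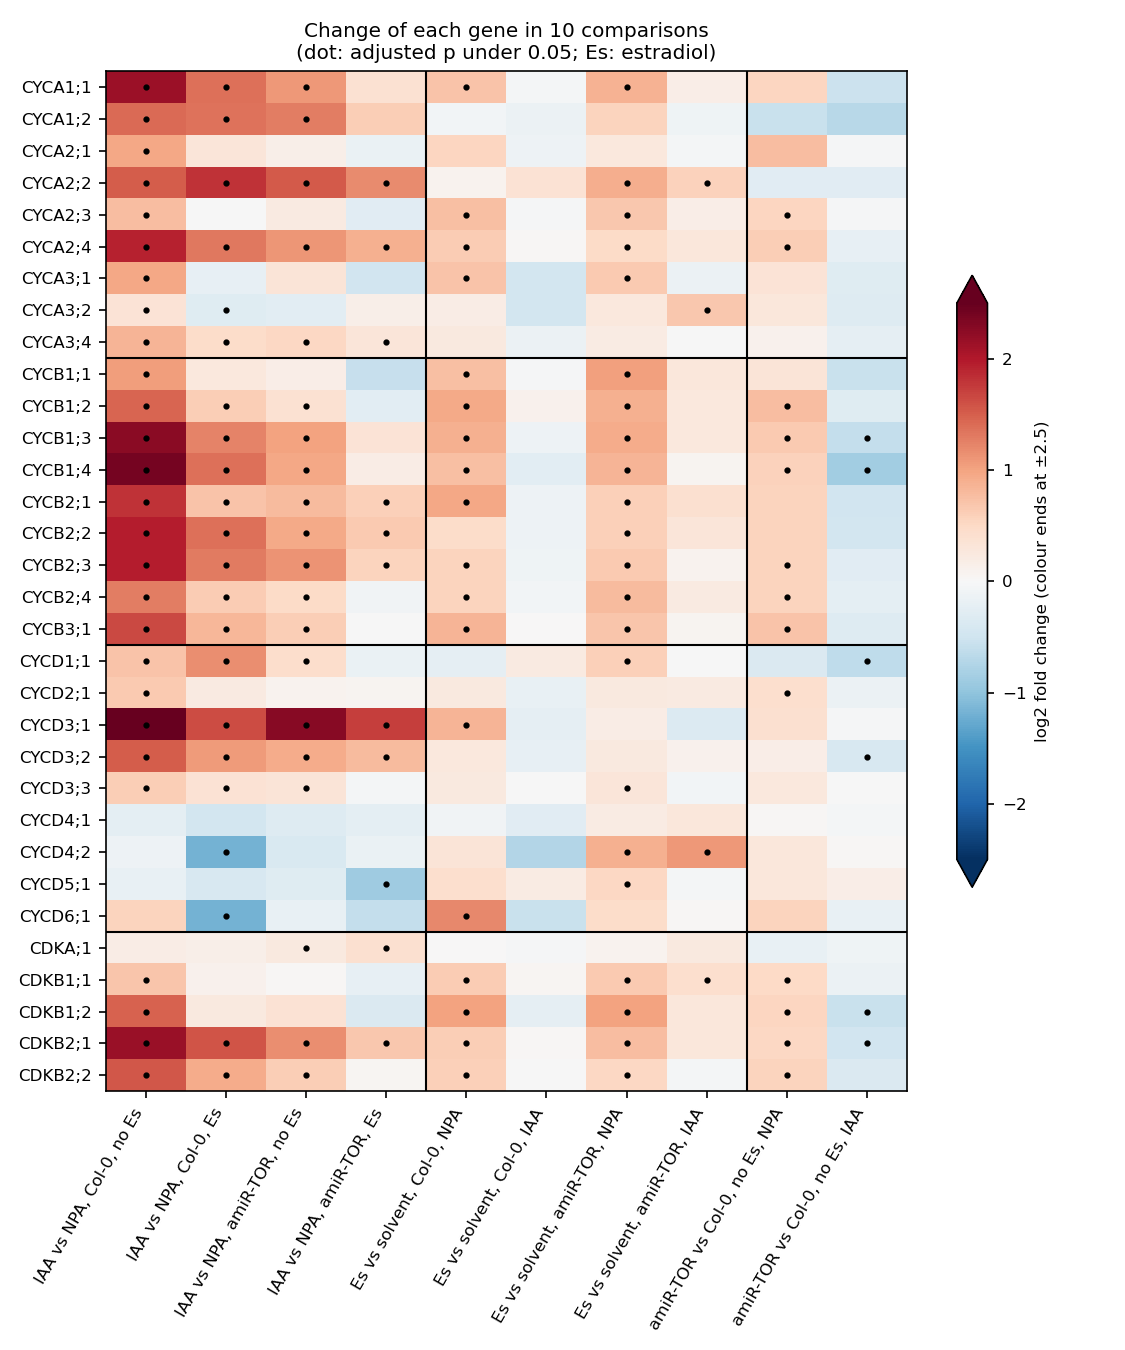
Log2 fold change of the 32 tested genes (rows, in the order A-type, B-type, D-type, CDK) in the 10 comparisons of a pair of groups (columns), with colour from blue (lower) to red (higher) and a dot where the adjusted p was under 0.05. In the leftmost column all 18 A- and B-type cyclins carry a dot, while 4 D-type cyclins and CDKA;1 do not.

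With estradiol present, the auxin response of Col-0 was called for fewer genes. Of the 18 A- and B-type cyclins, 13 rose, while CYCA3;2 (AT1G47210) fell, a call lost in 4 of 6 fits without a library. Of the 10 D-type cyclins, 4 rose and 2 fell, and 2 of 5 CDKs rose. The share of all tested genes called was 59.3%, with 29.9% higher and 29.3% lower. Medians were 0.76 over A- and B-type and 0.23 over the tested D-type cyclins, against -0.015 over all genes tested. CYCB1;4 had 9.59, 9.85 and 11.8 CPM on NPA and estradiol and 27.4, 24.03 and 30.2 CPM on IAA and estradiol, a change of 1.38 ± 0.13 (SE, adjusted p = 7.77e-09, edgeR). The IAA levels lay near those without estradiol, whereas the NPA levels were higher. CYCA2;2 went from 4.04, 4.16 and 5.53 CPM to 17.6, 16.5 and 14.3 CPM and had the largest log2 fold change among the 32, 1.80 ± 0.17 (SE, adjusted p = 7.19e-09, edgeR). CYCD3;1 went from 12.8, 10.8 and 15.4 CPM to 49.5, 34.04 and 36.8 CPM with 1.62 ± 0.17 (SE, adjusted p = 2.9e-08, edgeR), and CYCD1;1 from 20.5, 20.9 and 25.6 CPM to 46.8, 48.4 and 54.6 CPM with 1.16 ± 0.18 (SE, adjusted p = 8.44e-06, edgeR). Neither pair of groups overlapped. The 2 D-type cyclins that fell were AT5G10440 of CYCD4, at -1.18 ± 0.34, and AT4G03270 of CYCD6, at -1.18 ± 0.43, both with no library above 1.64 CPM in these groups. AT4G03270 had 526 counts on its own strand and 347 on the other, where AT4G03260 lies, and its call was lost when strand was ignored. The calls of AT1G47210, AT2G17620 of CYCB2, AT3G50070 of CYCD3 and AT5G10440 were lost without the 5 libraries of many unmapped reads. That fit keeps only replicate 1 of Col-0 on IAA and estradiol, so no count is given from it. With estradiol in Col-0, the root tip and cap markers summed to 49.3 to 55.1 CPM on NPA and 58.1 to 68.4 CPM on IAA (2 of 7 called higher, 2 lower), and the ground tissue and epidermis markers summed to 99.4 to 112.6 CPM on NPA and 47.1 to 61.3 CPM on IAA (0 of 6 called higher, 5 lower). Over the same groups, the green shoot markers summed to 46.6 to 94.3 CPM on NPA and 19.02 to 30.6 CPM on IAA (0 of 5 called higher, 3 lower), and the part of these markers was not tested.

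In amiR-TOR without estradiol, 13 of 18 A- and B-type cyclins, 4 of 10 D-type cyclins and 3 of 5 CDKs rose on IAA and none fell, beside 52.8% of all tested genes called (29.3% higher, 23.5% lower). The median was 0.70 over A- and B-type cyclins and 0.09 over the tested D-type cyclins, against 0.021 over all genes. CYCA2;2 had 3.01, 3.34 and 4.41 CPM on NPA and 8.41, 11.4 and 11.4 CPM on IAA, with 1.53 ± 0.19 (SE, adjusted p = 3.17e-07, edgeR). CYCD3;1 (AT4G34160) had 8.84, 9.67 and 10 CPM and 47.1, 45.2 and 45.3 CPM, with 2.27 ± 0.18 (SE, adjusted p = 3.55e-10, edgeR). Both rose without overlap, AT4G34160 to levels inside the range of Col-0 on IAA. CDKB2;1 went from 17.3, 19.1 and 18.7 CPM to 40.7, 37.2 and 44.8 CPM, with 1.16 ± 0.12 (SE, adjusted p = 5.02e-08, edgeR). CDKA;1 rose slightly, from 51.6, 52.2 and 58.9 CPM to 65.4, 65.7 and 62.7 CPM, with 0.25 ± 0.09 (SE, adjusted p = 0.018, edgeR). Of the 20 calls, 12 held in every other setting and in each of the 6 fits that left out a library, and the numbers rising were between 9 and 13 A- and B-type cyclins when a library was left out. The CYCD1;1 call was lost in 6 of 8 other settings. In these amiR-TOR groups, the root tip and cap markers summed to 46.8 to 47.4 CPM on NPA and 80.3 to 90.2 CPM on IAA (3 of 7 called higher, 0 lower), and the ground tissue and epidermis markers summed to 110.0 to 115.9 CPM on NPA and 84.9 to 100.9 CPM on IAA (1 of 6 called higher, 2 lower). Likewise, the green shoot markers summed to 99.3 to 116.8 CPM on NPA and 46.1 to 68 CPM on IAA (2 of 5 called higher, 1 lower), and the part of these markers was not tested.

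In amiR-TOR with estradiol, where the TOR transcript was low, 6 of 18 A- and B-type cyclins rose on IAA. CYCD3;1 (AT4G34160) and AT5G67260 of CYCD3 rose and AT4G37630 of CYCD5 fell among 10 D-type cyclins, and CDKA;1 and CDKB2;1 rose among 5 CDKs. Of all tested genes 39.2% were called, 20.6% higher and 18.6% lower. Medians were 0.24 over A- and B-type and -0.16 over the tested D-type cyclins, against 0.012 over all genes. AT4G34160 had 12.03, 8.32 and 12.3 CPM on NPA and 34.98, 37.6 and 35.5 CPM on IAA, with 1.73 ± 0.17 (SE, adjusted p = 2.82e-08, edgeR). AT5G67260 had 27.9, 32.2 and 24.9 CPM and 49.1, 46.2 and 51.3 CPM, with 0.79 ± 0.10 (SE, adjusted p = 5.76e-07, edgeR). The groups were apart for both genes. AT4G37630, a cyclin linked to endoreduplication, went from 8.44, 9.10 and 8.79 CPM to 3.29, 5.54 and 5.43 CPM, and every IAA library was lower at -0.88 ± 0.20 (SE, adjusted p = 0.00114, edgeR). The A- and B-type cyclins called were AT5G11300 of CYCA2 (1.19 ± 0.17), AT1G80370 of CYCA2 (0.89 ± 0.11), AT4G35620 of CYCB2 (0.65 ± 0.18), AT2G17620 of CYCB2 (0.59 ± 0.22), AT1G20610 of CYCB2 (0.55 ± 0.15) and AT1G47230 of CYCA3 (0.30 ± 0.10). None of the 4 CYCB1 genes was among them: CYCB1;4 had 15.1, 18.1 and 17.04 CPM on NPA and 16.9, 19.6 and 20.3 CPM on IAA, with overlap, at 0.18 ± 0.13 (SE, adjusted p = 0.302, edgeR). Leaving out a library gave between 4 and 7 A- and B-type cyclins rising. The call of AT2G17620 was lost in 4 and that of AT1G47230 in 3 of 8 other settings. For amiR-TOR given estradiol, the root tip and cap markers summed to 56.6 to 68.1 CPM on NPA and 78.5 to 84.8 CPM on IAA (2 of 7 called higher, 1 lower), and the ground tissue and epidermis markers summed to 139.7 to 147.8 CPM on NPA and 75.2 to 125.1 CPM on IAA (0 of 6 called higher, 3 lower). In these 6 libraries, the green shoot markers summed to 10.2 to 38.3 CPM on NPA and 6.90 to 10.4 CPM on IAA (0 of 5 called higher, 3 lower), and the part of these markers was not tested. The 4 auxin comparisons use different libraries in each genotype and estradiol state, but each group also enters the estradiol comparisons that follow.

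**Figure D2:**
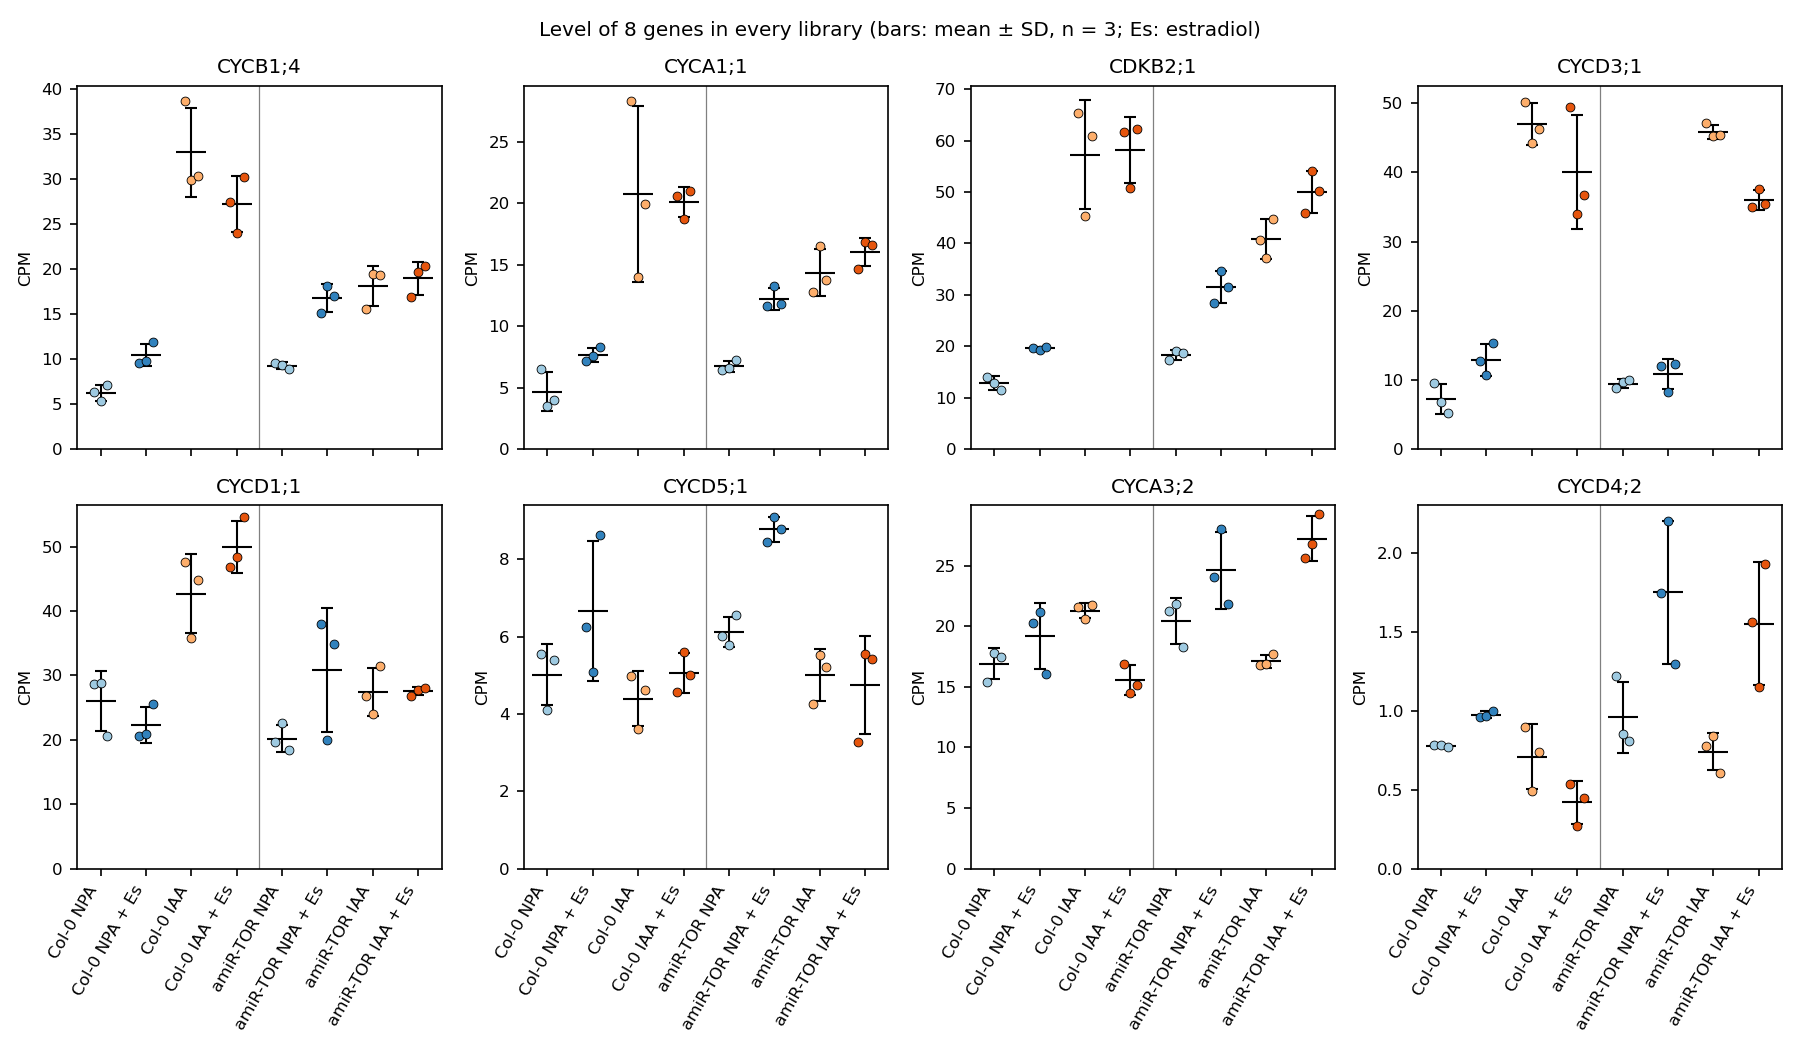
Level of 8 genes in CPM (vertical axis) in each of the 24 libraries (points), by group (horizontal axis), with bars for the mean ± SD of 3 libraries. CYCB1;4, CYCA1;1 and CDKB2;1 are also higher on NPA with estradiol than without, whereas CYCD3;1 is high in all 4 IAA groups and CYCD1;1 is on average highest in the 2 Col-0 IAA groups.

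Estradiol was compared with solvent to separate the effect of the inducer from that of the microRNA. On NPA it raised 12 of 18 A- and B-type cyclins, 2 of 10 D-type cyclins and the 4 B-type CDKs in Col-0, which carries no microRNA construct. Among all genes tested 21.7% were called, 12.4% higher and 9.3% lower. Medians were 0.67 over A- and B-type and 0.26 over the tested D-type cyclins, against 0.013 over all genes. AT5G06150 of CYCB1 had 8.12, 6.83 and 7.09 CPM with solvent and 14.2, 14.2 and 13.9 CPM with estradiol, without overlap, at 0.94 ± 0.13 (SE, adjusted p = 0.000103, edgeR). AT3G11520 of CYCB1, given above with solvent, had 7.37, 7.59 and 9.002 CPM with estradiol and 0.88 ± 0.16 (SE, adjusted p = 0.000665, edgeR). AT2G17620 of CYCB2 went from 2.06, 1.94 and 1.87 CPM to 4.29, 4.28 and 3.11 CPM with 0.98 ± 0.24 (SE, adjusted p = 0.00642, edgeR). Part of AT5G06150 also occurs elsewhere in the genome (11.3% of its exon stretches of 50 bases), as does part of AT1G20610 of CYCB2 (17%), so their counts are uncertain. AT2G38620 of CDKB1 had 3.67, 2.72 and 3.46 CPM with solvent and 6.003, 6.94 and 6.79 CPM with estradiol, at 1.01 ± 0.17 (SE, adjusted p = 0.000427, edgeR). Its groups were apart. The A-type cyclins called were AT1G15570 of CYCA2 (0.75 ± 0.16), AT1G44110 of CYCA1 (0.72 ± 0.21), AT5G43080 of CYCA3 (0.71 ± 0.25) and AT1G80370 of CYCA2 (0.64 ± 0.12). Of the D-type cyclins, CYCD3;1 rose from 9.54, 6.90 and 5.22 CPM to 12.8, 10.8 and 15.4 CPM with 0.84 ± 0.18 (SE, adjusted p = 0.00247, edgeR), and AT4G03270 of CYCD6 was called at 1.20 ± 0.43 (adjusted p = 0.0478, edgeR), a call lost in 6 of 8 other settings. The calls of AT5G43080 and AT1G44110 were lost in 4 and 1 of the 8. The count of 18 fell to 11 without replicate 3 of Col-0 on NPA and to 10 without replicate 3 of Col-0 on NPA and estradiol, and without the 5 libraries of many unmapped reads it was 13 A- and B-type cyclins, 2 D-type cyclins and 4 CDKs. Along with this change, the root tip and cap markers summed to 26.7 to 39.6 CPM with solvent and 49.3 to 55.1 CPM with estradiol (5 of 7 called higher, 0 lower), and the ground tissue and epidermis markers summed to 81.7 to 97.03 CPM with solvent and 99.4 to 112.6 CPM with estradiol (2 of 6 called higher, 0 lower). Between both treatments, the green shoot markers summed to 98.2 to 143.8 CPM with solvent and 46.6 to 94.3 CPM with estradiol (0 of 5 called higher, 1 lower), and the part of these markers was not tested.

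In amiR-TOR on NPA, estradiol raised 14 of 18 A- and B-type cyclins, 4 of 10 D-type cyclins and the 4 B-type CDKs, beside 33% of all tested genes called (20% higher, 13% lower). Medians were 0.66 over A- and B-type and 0.31 over the tested D-type cyclins, against 0.07 over all genes. All 9 B-type cyclins rose, by between 0.60 and 1.03, but the call of AT2G17620 of CYCB2 was lost in 5 of 8 other settings and in all 6 fits without a library. AT4G37490 of CYCB1 went from 5.77, 5.90 and 5.65 CPM to 8.35, 14.9 and 11.97 CPM, with 1.03 ± 0.24 (SE, adjusted p = 0.00255, edgeR). AT3G11520 of CYCB1 went from 7.43, 7.11 and 6.08 CPM to 10.9, 15.03 and 13.5 CPM, with 0.94 ± 0.15 (SE, adjusted p = 7.46e-05, edgeR). AT2G38620 of CDKB1 went from 4.87, 4.23 and 5.27 CPM to 9.56, 9.98 and 9.19 CPM, with 1.00 ± 0.16 (SE, adjusted p = 9.05e-05, edgeR). None of these groups overlapped. AT5G10440 of CYCD4 (0.89 ± 0.30), AT1G70210 of CYCD1 (0.60 ± 0.18), AT4G37630 of CYCD5 (0.52 ± 0.20) and AT3G50070 of CYCD3 (0.31 ± 0.12) were the D-type cyclins called. Leaving out any 1 of the 6 libraries lost at least 2 of these 4 calls. Without replicate 3 of amiR-TOR on NPA, or replicate 1 of amiR-TOR on NPA and estradiol, all 4 were lost. Between 10 and 13 A- and B-type cyclins rose when a library was left out. Along with these rises, the root tip and cap markers summed to 46.8 to 47.4 CPM with solvent and 56.6 to 68.1 CPM with estradiol (2 of 7 called higher, 0 lower), and the ground tissue and epidermis markers summed to 110.0 to 115.9 CPM with solvent and 139.7 to 147.8 CPM with estradiol (2 of 6 called higher, 0 lower). At the same time, the green shoot markers summed to 99.3 to 116.8 CPM with solvent and 10.2 to 38.3 CPM with estradiol (0 of 5 called higher, 2 lower), and the part of these markers was not tested.

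The difference between the genotypes in the estradiol effect on NPA was called by edgeR for 0 of the 32 genes, against 2.62% of all tested genes. At an unadjusted p under 0.05 it was 3 of the 32, and DESeq2 called 2. The nearest were CYCD1;1 (AT1G70210), with a difference of 0.83 ± 0.25 (adjusted p = 0.0819, edgeR), and CYCA2;2, with 0.83 ± 0.26 (adjusted p = 0.0857, edgeR). AT1G70210 had 28.7, 28.8 and 20.7 CPM in Col-0 with solvent and 20.5, 20.9 and 25.6 CPM with estradiol, against 19.6, 22.6 and 18.4 CPM and 37.95, 19.9 and 34.9 CPM in amiR-TOR. Replicate 2 of amiR-TOR with estradiol stayed among the solvent libraries. For B-type cyclins the differences between genotypes lay between -0.37 (AT2G17620 of CYCB2) and 0.27 (AT4G37490 of CYCB1), with SEs of 0.18 to 0.35, and the absence of a call does not show that the genotypes responded alike.

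**Figure D3:**
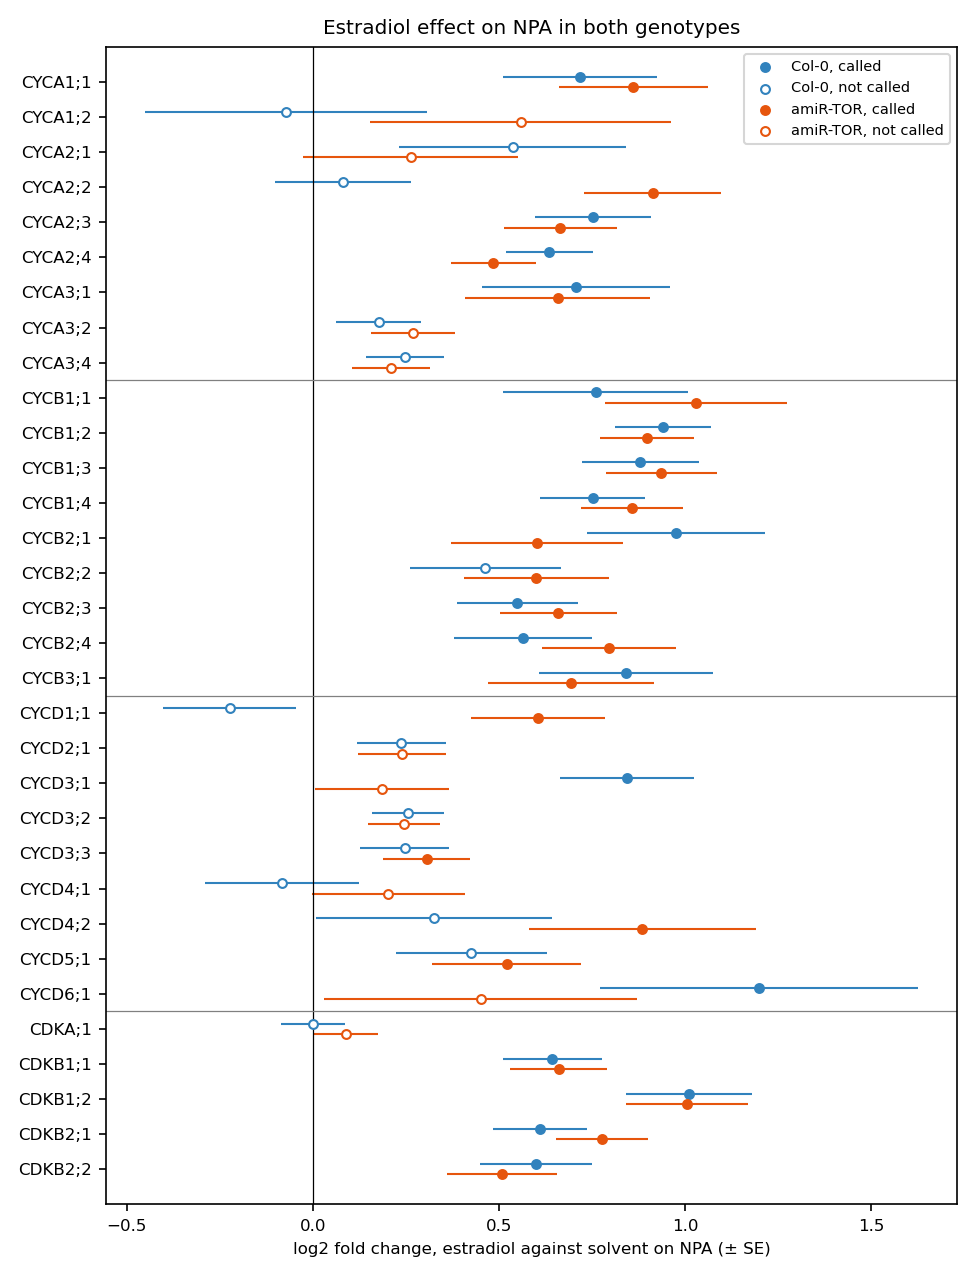
Log2 fold change (horizontal axis) of estradiol against solvent on NPA for the 32 tested genes (rows), with bars of ± 1 SE, blue for Col-0 and orange for amiR-TOR, filled where called. For the B-type cyclins and B-type CDKs the values of both genotypes lie between 0.46 and 1.03.

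On IAA fewer of the genes were called for estradiol than on NPA. In Col-0, edgeR called 0 of the 32 tested genes (1.02% of all tested genes, 0.568% higher and 0.456% lower). At an unadjusted p under 0.05 there were 4, and DESeq2 called 1. The median was -0.12 over A- and B-type and -0.20 over the tested D-type cyclins, against -0.004 over all genes. In amiR-TOR, 4 of 32 rose and none fell, beside 18.9% of all tested genes called (8.99% higher, 9.9% lower). CYCA3;2 (AT1G47210) had 16.8, 16.8 and 17.7 CPM with solvent and 25.6, 26.8 and 29.2 CPM with estradiol, and the groups were apart at 0.67 ± 0.12 (SE, adjusted p = 0.00035, edgeR). CYCA2;2 went from 8.41, 11.4 and 11.4 CPM to 13.2, 15.3 and 17.8 CPM with 0.58 ± 0.17 (SE, adjusted p = 0.0195, edgeR). AT3G54180 of CDKB1 went from 12.1, 11.6 and 12.1 CPM to 15.5, 15.9 and 16.2 CPM with 0.41 ± 0.13 (SE, adjusted p = 0.0316, edgeR). AT3G54180 acts with AT1G15570 of CYCA2 against endoreduplication. AT5G10440 of CYCD4 rose by 1.09 ± 0.33 (adjusted p = 0.0219, edgeR) from 0.608 to 0.842 CPM to 1.15 to 1.93 CPM. The count of 4 became 1 without replicate 1 of amiR-TOR on IAA, 2 without its replicate 3, and 1 without replicate 3 of amiR-TOR on IAA and estradiol. AT1G47210 held its call in each of these fits. For amiR-TOR on IAA, the root tip and cap markers summed to 80.3 to 90.2 CPM with solvent and 78.5 to 84.8 CPM with estradiol (0 of 7 called higher, 1 lower), and the ground tissue and epidermis markers summed to 84.9 to 100.9 CPM with solvent and 75.2 to 125.1 CPM with estradiol (0 of 6 called higher, 0 lower). Across these 6 libraries, the green shoot markers summed to 46.1 to 68 CPM with solvent and 6.90 to 10.4 CPM with estradiol (0 of 5 called higher, 5 lower), and the part of these markers was not tested.

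The auxin response with estradiol was tested against that without, within each genotype. The value is the log2 fold change of IAA against NPA with estradiol minus that with solvent. In Col-0 it was negative and called for 13 of 32 genes and positive for none, beside 11.2% of all tested genes (4.49% positive, 6.73% negative). By class these were 8 of 18 A- and B-type cyclins, 3 of 5 CDKs and 2 of 10 D-type cyclins, CYCD3;1 (AT4G34160) and AT5G67260 of CYCD3. The median was -0.71 over A- and B-type and -0.425 over the tested D-type cyclins, against -0.02 over all genes. AT2G38620 of CDKB1 had the largest difference among those called. It had 3.67, 2.72 and 3.46 CPM on NPA and 10.3, 7.53 and 9.41 CPM on IAA without estradiol, against 6.003, 6.94 and 6.79 CPM and 7.43, 6.91 and 8.98 CPM with it. The difference in log2 fold change was -1.24 ± 0.23 (SE, adjusted p = 0.00275, edgeR), lost when strand was ignored. CYCB1;4 differed by -1.02 ± 0.19 (SE, adjusted p = 0.00257, edgeR) and AT3G11520 of CYCB1 by -1.01 ± 0.21 (SE, adjusted p = 0.00488, edgeR). AT5G06150 of CYCB1 differed by -0.84 ± 0.18 and AT4G34160 by -1.07 ± 0.24, and these 4 held in every alternative run. The other 8 were AT5G43080 of CYCA3 (-1.17 ± 0.35), AT2G17620 of CYCB2 (-1.11 ± 0.32), AT1G15570 of CYCA2 (-0.78 ± 0.22), AT1G47210 of CYCA3 (-0.63 ± 0.16), AT1G80370 of CYCA2 (-0.61 ± 0.16), AT1G76540 of CDKB2 (-0.59 ± 0.17), AT3G54180 of CDKB1 (-0.59 ± 0.19) and AT5G67260 (-0.45 ± 0.14). All 8 lost their call in at least 1 alternative. Without the 5 libraries of many unmapped reads, only replicate 1 of Col-0 on IAA and estradiol was left, so no count is given from that fit. The count of calls was 7 when only these 4 groups were fitted. It was 7 or 8 without replicate 2 or 3 of Col-0 on NPA, replicate 1 of Col-0 on NPA and estradiol, replicate 1 or 3 of Col-0 on IAA, or replicate 2 of Col-0 on IAA and estradiol.

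In amiR-TOR, where TOR itself fell with estradiol, 3 of 32 were called, all negative and all of the CYCB1 group. That share is near the 9.57% of all tested genes (2% positive, 7.58% negative). Negative values were not confined to CYCB1, since 28 of the 32 were below 0. The median was -0.569 over A- and B-type cyclins, -0.379 over the tested D-type cyclins and -0.489 over the CDKs, against -0.036 over all genes. CYCB1;4 (AT2G26760) differed by -0.79 ± 0.19 (SE, adjusted p = 0.00982, edgeR), AT3G11520 of CYCB1 by -0.66 ± 0.21 (SE, adjusted p = 0.0455, edgeR) and AT5G06150 of CYCB1 by -0.63 ± 0.18 (SE, adjusted p = 0.0252, edgeR). AT2G26760 went from 9.61, 9.31 and 8.87 CPM to 15.6, 19.5 and 19.4 CPM without estradiol, and its values with estradiol are given above. The count was 1 without replicate 2 of amiR-TOR on NPA, replicate 3 of amiR-TOR on IAA or replicate 1 of amiR-TOR on IAA and estradiol, 6 without replicate 3 of the last group, and 1 without the 5 libraries of many unmapped reads. AT2G26760 alone held its call throughout. Whether the interaction differed between the genotypes was called for 1 gene, CYCA3;2 (AT1G47210), beside 0.719% of all genes. In Col-0, AT1G47210 had 15.4, 17.8 and 17.4 CPM on NPA, 20.23, 21.2 and 16.1 CPM on NPA and estradiol, 21.6, 20.6 and 21.7 CPM on IAA and 16.9, 14.5 and 15.2 CPM on IAA and estradiol. In amiR-TOR the first 2 groups had 21.2, 21.8 and 18.3 CPM and 24.02, 28.1 and 21.8 CPM, and the IAA values are given above. On IAA, the libraries with estradiol lay below those with solvent in Col-0 and above them in amiR-TOR. On IAA the estradiol effect on AT1G47210 differed between the genotypes by 1.12 ± 0.16 (SE, adjusted p = 0.000215, edgeR), a call that held in every alternative run. The difference of all 3 factors was 1.03 ± 0.23 (SE, adjusted p = 0.0311, edgeR), and this call was lost in 14 of 24 fits without a library and without the 5 libraries of many unmapped reads. The estradiol effect on IAA also differed between genotypes for AT5G10440 of CYCD4, by 1.81 ± 0.49 (SE, adjusted p = 0.0224, edgeR), at levels of 0.272 to 1.93 CPM. That call was lost without the 5 libraries and in 5 of 12 fits without a library. Of all tested genes 9.17% were called for this difference, a larger share than 2 of the 32, with 4.44% positive and 4.73% negative.

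Without estradiol, amiR-TOR was compared with Col-0 to see how the uninduced line differs. On NPA, 13 of 32 genes were higher in amiR-TOR and none lower, beside 22.1% of all tested genes called (10.7% higher, 11.4% lower). They were 8 of 18 A- and B-type cyclins, 1 of 10 D-type cyclins (AT2G22490 of CYCD2) and the 4 B-type CDKs. AT5G06150 of CYCB1 had 13.7, 11.4 and 12.7 CPM in amiR-TOR, above each of the Col-0 libraries given above, at 0.77 ± 0.13 (SE, adjusted p = 0.000391, edgeR). AT3G11520 of CYCB1 stood at 0.66 ± 0.16, AT1G16330 of CYCB3 at 0.71 ± 0.24, AT1G80370 of CYCA2 at 0.62 ± 0.12 and AT1G15570 of CYCA2 at 0.54 ± 0.16. CDKB2;1 (AT1G76540) differed by 0.52 ± 0.13 (SE, adjusted p = 0.00612, edgeR), from the values given above. AT2G22490, known from the control of root meristem size and lateral roots, had 19.4, 20.18 and 17.6 CPM in Col-0 and 24.03, 27.6 and 24.9 CPM in amiR-TOR, with 0.42 ± 0.12 (SE, adjusted p = 0.0152, edgeR). The count became 8 without replicate 2 and 6 without replicate 3 of Col-0 on NPA, and 8 without replicate 1 or replicate 3 of amiR-TOR on NPA. On NPA, the root tip and cap markers summed to 26.7 to 39.6 CPM in Col-0 and 46.8 to 47.4 CPM in amiR-TOR (4 of 7 called higher, 0 lower), and the ground tissue and epidermis markers summed to 81.7 to 97.03 CPM in Col-0 and 110.0 to 115.9 CPM in amiR-TOR (0 of 6 called higher, 0 lower). Between the genotypes on NPA, the green shoot markers summed to 98.2 to 143.8 CPM in Col-0 and 99.3 to 116.8 CPM in amiR-TOR (0 of 5 called higher, 1 lower), and the part of these markers was not tested. On IAA, 6 of 32 were lower in amiR-TOR and none higher, beside 12.6% of all tested genes called (8.52% higher, 4.11% lower). They were AT2G26760 of CYCB1 (-0.86 ± 0.13), AT3G11520 (-0.60 ± 0.15), AT1G70210 of CYCD1 (-0.63 ± 0.18), AT5G67260 of CYCD3 (-0.41 ± 0.10), AT2G38620 of CDKB1 (-0.57 ± 0.17) and AT1G76540 (-0.48 ± 0.12). AT2G26760 had 38.6, 29.8 and 30.4 CPM in Col-0 and 15.6, 19.5 and 19.4 CPM in amiR-TOR, without overlap (adjusted p = 0.000171, edgeR). AT5G67260 had 62.2, 59.5 and 60.1 CPM in Col-0 and 46.2, 43.1 and 47.4 CPM in amiR-TOR, also apart (adjusted p = 0.0066, edgeR). The count was 3 without replicate 1 or without replicate 3 of Col-0 on IAA, 10 without its replicate 2, and 3 without the 5 libraries of many unmapped reads. On IAA, the root tip and cap markers summed to 60.1 to 67.6 CPM in Col-0 and 80.3 to 90.2 CPM in amiR-TOR (3 of 7 called higher, 0 lower), and the ground tissue and epidermis markers summed to 53.3 to 70.2 CPM in Col-0 and 84.9 to 100.9 CPM in amiR-TOR (3 of 6 called higher, 0 lower). Between the genotypes on IAA, the green shoot markers summed to 26.9 to 40.5 CPM in Col-0 and 46.1 to 68 CPM in amiR-TOR (1 of 5 called higher, 0 lower), and the part of these markers was not tested.

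Set side by side over the 8 groups, the class mean of the D-type cyclins moved over a narrower range than that of the A- and B-type cyclins. It takes in CYCD7;1 at 0 in every library, 4 genes that were not called on IAA against NPA in Col-0 without estradiol, and CYCD3;1, which had the largest rise of the 32 there. The mean of log2(CPM + 1) over the 10 D-type cyclins ran from 2.74 ± 0.0942 (SD, n = 3) in Col-0 on NPA to 3.32 ± 0.0919 in Col-0 on IAA. Over the 18 A- and B-type cyclins it ran from 2.43 ± 0.141 to 3.70 ± 0.182 in the same groups. The 5 CDKs ran from 3.63 ± 0.0944 to 4.74 ± 0.181. In amiR-TOR the mean of A- and B-type cyclins was 2.80 ± 0.0231 on NPA, 3.37 ± 0.0926 on NPA and estradiol, 3.38 ± 0.131 on IAA and 3.56 ± 0.144 on IAA and estradiol. The D-type mean was 2.89 ± 0.0312, 3.18 ± 0.0262, 3.21 ± 0.0247 and 3.27 ± 0.0569 in the same order. On the scale of summed CPM per kb, the ratio of A- and B-type to D-type cyclins was 0.961 ± 0.009 in Col-0 on NPA, 1.20 ± 0.065 on NPA and estradiol, 1.24 ± 0.126 on IAA and 1.24 ± 0.036 on IAA and estradiol. The libraries of Col-0 on NPA, between 0.954 and 0.971, lay under those of each other group. In amiR-TOR it was 1.14 ± 0.047, 1.42 ± 0.14, 1.11 ± 0.11 and 1.32 ± 0.094, so on IAA without estradiol it was no higher than on NPA. These class values are a description and carry no test.

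**Figure D4:**
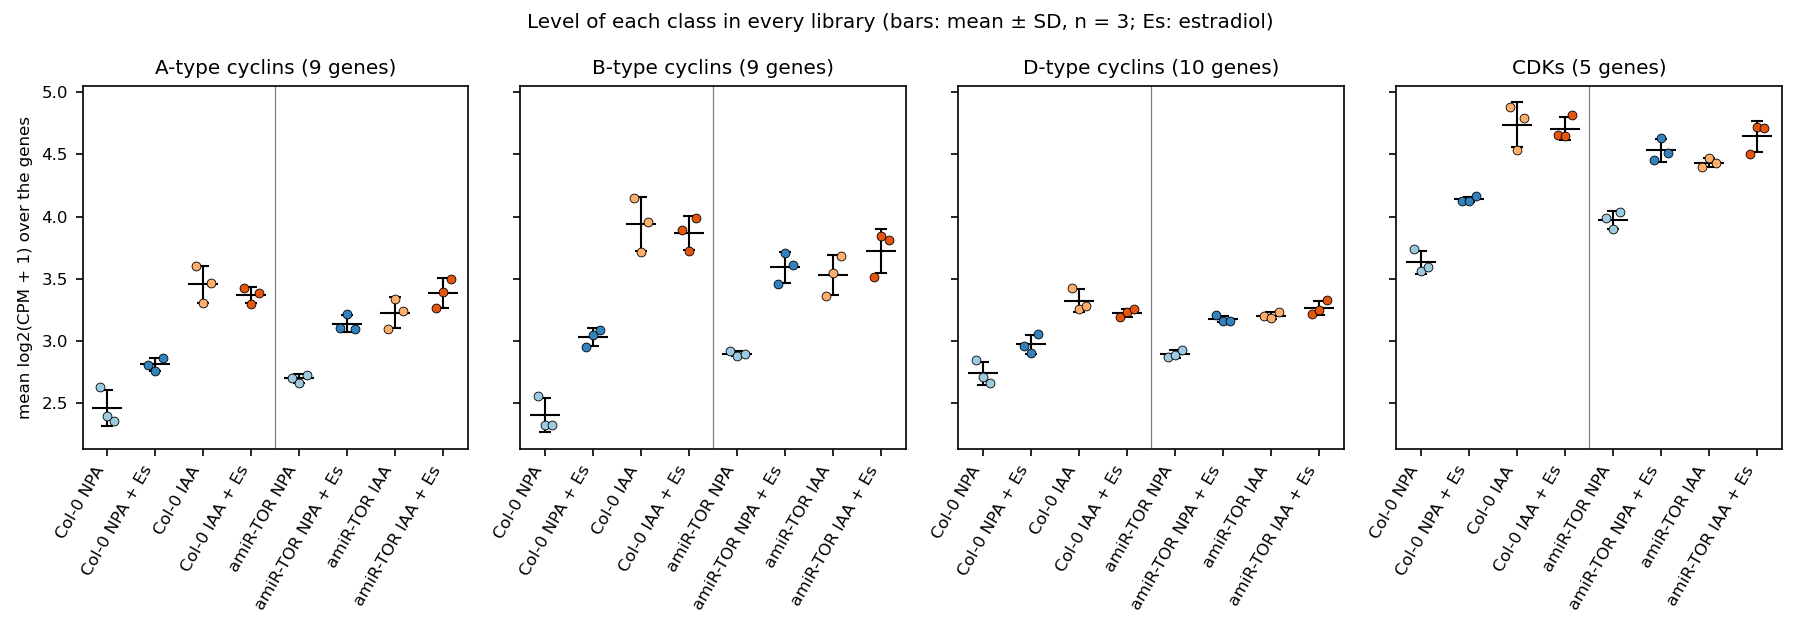
Mean of log2(CPM + 1) over the genes of each class (vertical axis) in each of the 24 libraries (points), by group (horizontal axis), with bars for the mean ± SD of 3 libraries. The group means of the B-type cyclins span from 2.40 in Col-0 on NPA to 3.94 in Col-0 on IAA, while those of the D-type cyclins stay between 2.74 and 3.32.

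The remaining genes are given by the lowest and highest of their 8 group means (SD, n = 3). AT5G25380 of CYCA2 ran from 1.07 ± 0.267 CPM in Col-0 on NPA to 2.21 ± 0.109 CPM in amiR-TOR on NPA and estradiol. AT1G15570 of CYCA2 ran from 5.91 ± 0.971 CPM in Col-0 on NPA to 13.6 ± 1.23 CPM in amiR-TOR on NPA and estradiol. AT5G43080 of CYCA3 ran from 2.64 ± 0.453 CPM in Col-0 on NPA to 5.30 ± 0.408 CPM in amiR-TOR on NPA and estradiol. These 3 A-type cyclins were lowest in the same group. AT1G47230 of CYCA3 ran from 12.7 ± 0.786 CPM in Col-0 on NPA to 22.9 ± 1.1 CPM in Col-0 on IAA. AT1G47230 takes part in formative divisions of the root. AT4G35620 of CYCB2 ran from 4.31 ± 1.34 CPM in Col-0 on NPA to 16.9 ± 5.05 CPM in Col-0 on IAA. AT1G76310 of CYCB2 ran from 5.02 ± 1.67 CPM in Col-0 on NPA to 12.7 ± 1.72 CPM in amiR-TOR on NPA and estradiol. AT1G16330 of CYCB3 ran from 2.22 ± 0.347 CPM in Col-0 on NPA to 6.995 ± 1.17 CPM in Col-0 on IAA and estradiol. Each of the 9 B-type cyclins had its lowest group mean in Col-0 on NPA. AT3G50070 of CYCD3 ran from 17.1 ± 1.95 CPM in Col-0 on NPA to 26.1 ± 2.30 CPM in Col-0 on IAA. AT1G20930 of CDKB2 ran from 7.69 ± 1.11 CPM in Col-0 on NPA to 22.5 ± 4 CPM in Col-0 on IAA. AT1G20930 and CDKB2;1 are needed for the shoot meristem and for orderly mitosis.

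Other genes of the cell cycle were counted over a list of 34 chosen by function. In Col-0 without estradiol 21 of 34 rose on IAA and 6 fell, with a median of 1.11 against -0.04 over all tested genes, of which 63.3% were called. With estradiol it was 18 and 6 in Col-0, and in amiR-TOR 17 and 4 without and 11 and 4 with estradiol, beside 59.3%, 52.8% and 39.2% of all genes called. E2FA, a factor of entry into replication, rose by 2.68 ± 0.15 and 1.70 ± 0.14 in Col-0 without and with estradiol, and by 1.98 ± 0.14 and 0.94 ± 0.13 in amiR-TOR. KRP1 and KRP2, inhibitors of CDKs, fell in each of the 4 comparisons, with -0.83 ± 0.14 for KRP2 in Col-0 without estradiol. MYB3R4, an activator that binds the AACGG element, rose by 1.59 ± 0.16, 0.99 ± 0.15 and 0.64 ± 0.16 in the first 3, and had 0.23 ± 0.15 in amiR-TOR with estradiol, which was not called. Estradiol on NPA raised 16 of 34 and lowered 1 in Col-0, and raised 14 and lowered 1 in amiR-TOR, beside 21.7% and 33% of all genes. PCNA1, the sliding clamp of DNA replication, rose by 1.01 ± 0.15 in Col-0 and 0.96 ± 0.15 in amiR-TOR. On IAA estradiol changed 0 of 34 in Col-0, and raised 1 and lowered 2 in amiR-TOR, beside 1.02% and 18.9% of all genes.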

How the data were processed

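RNA from pooled root segments was sequenced in 24 libraries, 3 in each of 8 groups set by the labels. The authors deposited read counts per gene and library as produced by STAR 2.5.2b on TAIR10, per the submitters' processing notes. Each table gives unstranded counts and counts for either strand, and between 95.36% and 96.31% of stranded reads fell in the fourth column, which was used. Its 4 summary lines of reads without a gene were left out of library sizes. Multimapping reads (1.43% to 3.04%) and ambiguous ones (0.284% to 0.835%) are not in the gene counts, which lowers genes with near copies or overlaps.

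From these counts, edgeR 4.0.16 in R 4.3.3 filtered low genes by filterByExpr over the 8 groups, scaled by TMM and fitted 1 quasi-likelihood model to all 24 libraries with a mean per group. P-values were adjusted by Benjamini-Hochberg over 21290 genes in each of 15 comparisons, with a threshold of 0.05. CPM values use TMM-scaled library sizes, and the common coefficient of variation between libraries was 0.143. SE is that of the log2 fold change in this model. The procedure was tested on simulated data. Sequences and motifs came from the RefSeq annotation of TAIR10.1, used only for sequence, exon length and overlaps, while counts were matched by locus. Motif and upstream windows, levels per kb and figures were made with Python 3.11.15, pandas 2.3.3 and matplotlib 3.10.9.

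Genes with full statistics were at most 3 called genes per class and comparison, those of largest absolute fold change averaging at least 1 CPM, and all called genes for the interactions. Uncalled, low or otherwise instructive genes described beside them were chosen after their values were seen. The genes and lists were chosen with earlier results of these data known. Alternatives were RLE scaling, DESeq2 1.42.0, no filter, unstranded counts, a covariate for libraries with over 20% unmapped reads, a replicate block, only the groups compared and each library left out. Leaving out the 5 libraries with over 20% unmapped reads was chosen after seeing the data. Samples were not treated as paired by replicate number, since the labels give no pairing and no comparison had all 3 correlations between same-numbered libraries above 0.1.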

Additional observations from a re-analysis of the deposited data

Results flagged for a closer look

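The results listed here are tested differences between a pair of effects, each given as a difference of log2 fold changes from edgeR's quasi-likelihood fit. In Col-0 the IAA response was smaller with estradiol than with solvent for 13 genes of 32, beside 11.2% of all tested genes called (6.73% negative). Only 4 of the 13 calls held in every alternative, and the count was 7 with only the groups compared. The difference was -0.78 for CYCA2;3, -0.61 for CYCA2;4, -1.17 for CYCA3;1 and -0.63 for CYCA3;2 among A-type cyclins. Among B-type cyclins it was -0.84 for CYCB1;2, -1.01 for CYCB1;3, -1.02 for CYCB1;4 and -1.11 for CYCB2;1. It was -1.07 for CYCD3;1 and -0.45 for CYCD3;2. Among CDKs it was -0.59 for CDKB1;1, -1.24 for CDKB1;2 and -0.59 for CDKB2;1. For CYCA3;2 the response with estradiol was itself negative. That call was lost with the covariate for unmapped reads, with only the groups compared, and in 4 of 6 fits without a library.

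In amiR-TOR the IAA response was smaller with estradiol for CYCB1;2 (-0.63), CYCB1;3 (-0.66) and CYCB1;4 (-0.79). These are 3 of 32, a share near the 9.57% of all tested genes called (7.58% negative). The call of CYCB1;3 was lost in 5 of 8 other settings and in 10 of 12 fits without a library. The estradiol effect on IAA differed between amiR-TOR and Col-0 by 1.12 for CYCA3;2 and by 1.81 for CYCD4;2, both higher in amiR-TOR. They are 2 of 32, a smaller share than the 9.17% of all tested genes called (4.44% positive). CYCD4;2 lay between 0.272 and 1.93 CPM on IAA, and its call was lost in some fits without a library. The difference of all 3 factors was 1.03 for CYCA3;2, which is 1 of 32, beside 0.719% of all tested genes called. That call was also lost in some fits without a library.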

How the results depend on the processing

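Of 162 calls of single genes, none changed direction in any alternative. Over all settings other than leaving out a library, 94 of 1295 repeated values lost their call, and 229 of 1098 did when a library was left out. The replicate block lost 8 of 162 calls and moved no count by over 1.5 times, giving for example 27 genes for IAA in Col-0 without estradiol, as before. Equal numbers were not shown to mark paired samples. The values below moved, and the cause was not tested.

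Without the 5 libraries of many unmapped reads, Col-0 on IAA and estradiol kept only replicate 1. Medians that use this group rest on that library, and no counts are given for them. They were 0.095 (D-type) and 0.854 (A- and B-type) for IAA in Col-0 with estradiol, and 0.047 (A- and B-type) for estradiol in Col-0 on IAA. Other median log2 fold changes of that fit were 0.785 (A- and B-type) for estradiol in Col-0 on NPA and 0.096 (D-type) in amiR-TOR on IAA. For amiR-TOR against Col-0 on IAA the D-type median was 0.02. Genes called were 3 of the 32 for amiR-TOR against Col-0 on IAA, 7 of the 32 and 1424 of all for the auxin by estradiol interaction in Col-0, 1 of the 32 in amiR-TOR, 1 and 878 for genotype by estradiol on NPA, 1 and 1071 on IAA, 0 for the interaction of all 3 factors, and 3 of all genes for estradiol in Col-0 on IAA. With only the groups compared, the D-type median was 0.044 for IAA in amiR-TOR and 0.242 for estradiol in amiR-TOR on NPA, and calls were 68 of all genes for estradiol in Col-0 on IAA, 7 and 1533 for auxin by estradiol in Col-0, and 1 and 1206 for genotype by estradiol on IAA. This fit could not be made for the interaction of all 3 factors.

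DESeq2 called 1 of the 32 and 574 of all genes for estradiol in Col-0 on IAA, 5 of the 32 for auxin by estradiol in amiR-TOR, 2 and 1066 for genotype by estradiol on NPA, and 357 of all genes for the 3 factors. Class medians were not recomputed with it. RLE scaling gave 1 of the 32 for estradiol in Col-0 on IAA and D-type medians of 0.043 and -0.229 for IAA in amiR-TOR without and with estradiol. Unstranded counts gave D-type medians of 0.018 for IAA in amiR-TOR, and 0.237 and -0.017 for estradiol in amiR-TOR on NPA and IAA. The covariate gave D-type medians of 0.292 for IAA in Col-0 with estradiol and -0.045 for estradiol in amiR-TOR on IAA.

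With each library left out in turn, genes called of the 32 ran from 10 to 18 (all genes 2043 to 5294) for estradiol in Col-0 on NPA, 0 to 1 (58 to 746) in Col-0 on IAA, and 1 to 4 (2370 to 3859) in amiR-TOR on IAA. For amiR-TOR against Col-0 they ran from 6 to 16 (2853 to 4709) on NPA and 3 to 10 (1494 to 2577) on IAA. For auxin by estradiol they ran from 7 to 17 (1208 to 3608) in Col-0 and 1 to 6 (1265 to 2119) in amiR-TOR, for genotype by estradiol 0 to 1 (294 to 634) on NPA and 1 to 2 (1135 to 1956) on IAA, and for the 3 factors 0 to 2 (89 to 238). Medians of A- and B-type cyclins ran from 1.435 to 1.675 and 0.695 to 0.843 for IAA in Col-0 without and with estradiol, 0.481 to 0.835 for IAA in amiR-TOR, and 0.606 to 0.795 for estradiol in Col-0 on NPA. D-type medians ran from 0.19 to 0.3 for IAA in Col-0 with estradiol, 0.032 to 0.18 and -0.174 to -0.003 for IAA in amiR-TOR without and with estradiol, -0.218 to -0.119 for estradiol in Col-0 on IAA, 0.279 to 0.392 and 0.01 to 0.109 in amiR-TOR on NPA and IAA, and 0.17 to 0.335 and -0.148 to 0.022 for amiR-TOR against Col-0 on NPA and IAA. At 3 libraries a group, and with 526 to 624 counts in all for CYCD6;1, CYCD4;2 and CYCA1;2, changes of these low genes were the least precise.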
